A study of Homo sapiens with 6 samples.

Results

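The genes described here are 10 components of the interleukin-1 (IL-1) receptor and MYD88-IRAK pathway, chosen by gene symbol from the 58174 genes in the expression files: the receptors IL1R1, IL1R2, IL1RAP and IL1RL1, the adaptor MYD88, the kinases IRAK1, IRAK2, IRAK3 and IRAK4, and the ubiquitin ligase TRAF6. They were measured by polyA RNA-seq in T24, an established human bladder cancer cell line. Cells carrying a lentiviral shRNA against UBC9 (shRNA-UBC9, n = 3) were compared with cells carrying a control shRNA (shRNA-NC, n = 3). UBC9 is the only E2 conjugating enzyme of the SUMO pathway, which attaches the small protein SUMO to other proteins. Both groups were stable puromycin-selected lines, so all 6 libraries came from 1 cell line that had been transduced, and the knockdown rested on 1 shRNA sequence. The labels do not say whether the 3 samples of a group were separate cultures, so the p-values measure only the spread between these samples, which may be technical. The question for these genes was whether T24 cells carry the transcripts needed to respond to IL-1, and whether these differed after knockdown.

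IL-1 alpha and IL-1 beta bind IL1R1, which then recruits the accessory chain IL1RAP. The joined intracellular domains attract the adaptor MYD88, on which the IRAK kinases assemble, and the kinases engage TRAF6, whose ubiquitin chains activate the kinases upstream of NF-kB and the MAP kinases. IL1R2 binds IL-1 without signalling and acts as a decoy, IL1RL1 is the receptor for IL-33 and also pairs with IL1RAP, and IRAK3 (IRAK-M) is known mainly as a brake on the pathway.

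Sequencing depth, read from the steps between low RPKM values, differed between libraries, with 24277553 to 30625606 whole reads recovered over genes. Traces of blood and muscle transcripts separated the libraries across the groups. In shRNA-NC replicates 2 and 3 and shRNA-UBC9 replicates 1 and 2, the leukocyte genes PTPRC, CD3E and LYZ reached 0.102, 0.185 and 0.786 RPKM at most (RPKM is a read count scaled by transcript length and by the mapped reads of the library), and HBB, S100A9 and CKM, which were picked after their values were seen, reached 0.877, 2.75 and 0.599 RPKM. All 6 of these genes were at 0 in the other 2 libraries. Values for the 10 genes, other than IL1R2 at the limit of detection, are therefore also given within the 4 libraries with these traces and within the 2 without them. The 2 without are 1 library of each group, shRNA-NC replicate 1 and shRNA-UBC9 replicate 3, so their difference has no measure of spread. They also had the lowest depth, at 25187831 and 24277553 recovered reads, so this split cannot be told apart from depth. Of the cell type markers, the summed epithelial level was 938 to 1110 RPKM in shRNA-NC and 426 to 563 RPKM in shRNA-UBC9, with CDH1 at or near 0 in every library, and 5 of 6 urothelial differentiation markers stayed under 0.5 RPKM. The summed leukocyte level was 2.47 to 4.59 RPKM in shRNA-NC and 20.4 to 49.9 RPKM in shRNA-UBC9. CD68, a lysosomal gene, made up most of the latter at 18.6 to 48.4 RPKM. The summed endothelial level was 2.64 to 3.26 and 0.327 to 1.07 RPKM and the summed fibroblast level 0.304 to 0.564 and 0.699 to 1.13 RPKM, respectively. In every library 3 of 4 endothelial and 4 of 5 fibroblast markers stayed under 0.5 RPKM, so each of these sums came mostly from 1 gene. The part of these shifts in the results below was not tested.

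IRAK2 and IL1RAP rose after UBC9 knockdown, and so did the rarer IRAK3, while MYD88, IRAK1, IRAK4 and TRAF6 did not pass the test. IRAK3 was expressed highly enough to be tested only in the shRNA-UBC9 samples, and its adjusted p was 0.052 within the 4 libraries with blood transcripts. IRAK2 rose 3.62-fold to 33.1 ± 2.67 RPKM, IL1RAP rose 3.32-fold to 3.50 ± 0.915 RPKM and IRAK3 rose 2.24-fold to 0.837 ± 0.149 RPKM (SD, n = 3). The ligand receptors IL1R1, IL1R2 and IL1RL1 were below the expression filter of 0.5 RPKM in at least 3 of the 6 samples. Thus 7 of the 10 genes were tested, with limma on log2(RPKM + 0.1) over 12428 genes. A gene passed at a Benjamini-Hochberg adjusted p-value below 0.05, and was called a DEG if its log2 fold change also exceeded 1 in size. Of the 7 tested genes 3 passed as higher, against 18.8% of all tested genes, and 0 passed as lower, against 18.0%. IRAK3 could be tested only because it was high in shRNA-UBC9, and of the 6 others 2 passed as higher. DEGs numbered 2 higher (5.2% of all tested genes) and 0 lower (2.7%). The samples of the groups did not overlap for 4 of the 7 genes as higher, IRAK3 among them (25.7% of all tested genes). They did not overlap for 1 gene as lower (25.4%). With 7 genes these counts describe the set and were not tested as a set. The median log2 fold change was 0.25 over the 7 genes, IRAK3 included, and 0.005 over all tested genes. Leaving IRAK3 aside, the log2 fold changes of the 6 others were 1.85, 1.62, 0.25, -0.17, -0.19 and -0.23. In bulk RNA, a change in the number of cells expressing a gene cannot be told apart from a change in RNA per cell.

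**Figure D1:**
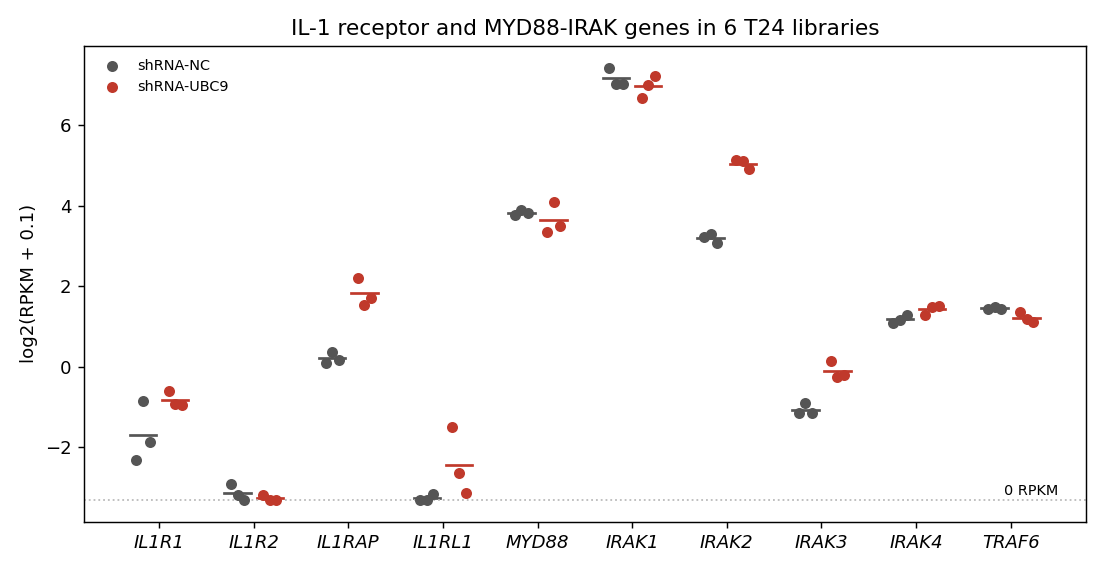
Each point is the level of a gene in 1 library, as log2(RPKM + 0.1), with short bars for the group means (n = 3 per group), and the dotted line marks 0 RPKM. IRAK2 and IL1RAP show the widest gaps between the groups among the tested genes, whereas the points of MYD88 and IRAK1 interleave and IL1R2 lies at the bottom of the range in both groups.

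The promoters of the 3 genes that rose are shown with that of MYD88, which did not pass the test, because these 4 windows allow genes with and without a change to be read side by side. Each is the 250 bases before the gene's start in RefSeq (GRCh38.p14), 5′ to 3′ on the gene's strand. Capitals mark GC boxes (GGGCGG, on either strand) and, in MYD88, a match to the interferon-stimulated response element, or ISRE (GAAANNGAAA, on either strand).
IRAK2 (chr3:10164669-10164918, + strand): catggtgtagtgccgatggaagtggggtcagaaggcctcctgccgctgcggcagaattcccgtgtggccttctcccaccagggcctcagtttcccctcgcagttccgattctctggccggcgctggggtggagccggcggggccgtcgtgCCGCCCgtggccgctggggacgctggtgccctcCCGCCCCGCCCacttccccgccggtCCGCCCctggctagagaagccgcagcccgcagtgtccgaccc
IL1RAP (chr3:190513835-190514084, + strand): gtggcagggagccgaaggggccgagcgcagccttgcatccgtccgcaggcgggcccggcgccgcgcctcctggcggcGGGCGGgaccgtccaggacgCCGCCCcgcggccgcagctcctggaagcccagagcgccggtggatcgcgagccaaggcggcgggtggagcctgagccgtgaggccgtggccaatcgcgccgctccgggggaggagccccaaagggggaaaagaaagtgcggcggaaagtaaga
IRAK3 (chr12:66188964-66189213, + strand): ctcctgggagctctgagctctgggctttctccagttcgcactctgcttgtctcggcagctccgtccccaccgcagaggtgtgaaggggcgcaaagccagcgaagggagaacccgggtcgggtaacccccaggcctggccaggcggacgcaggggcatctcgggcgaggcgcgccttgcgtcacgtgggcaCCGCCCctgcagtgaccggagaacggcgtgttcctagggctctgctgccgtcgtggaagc
MYD88 (chr3:38138411-38138660, + strand): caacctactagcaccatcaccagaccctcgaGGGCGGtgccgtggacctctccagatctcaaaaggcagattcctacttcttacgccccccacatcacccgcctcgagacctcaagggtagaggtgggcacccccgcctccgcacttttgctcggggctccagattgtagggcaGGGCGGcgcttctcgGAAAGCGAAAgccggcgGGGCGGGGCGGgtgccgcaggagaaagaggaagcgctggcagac
The GC box was matched 4 times in IRAK2, 2 times in IL1RAP, 1 time in IRAK3 and 4 times in MYD88, where matches may overlap. It occurred in 42.64% of the 35116 promoter windows searched. The share of G or C was 72.0%, 74.8% and 68.4% for IRAK2, IL1RAP and IRAK3, beside 64.4% for MYD88, 61.6% for IRAK4, 69.6% for TRAF6 and 82.4% for IRAK1, so the genes with and without a change overlapped. None of the windows of the 3 genes that rose held a match to the NF-kB motif (found in 9.96% of all windows), the AP-1 motif TGANTCA (6.57%), the ISRE (3.02%) or the TATA box TATAAA (10.72%), each searched on both strands. Of the tested genes that did not pass, IRAK1 held 1 match to the NF-kB motif and MYD88 the ISRE match. IRAK4 and TRAF6 held neither. These letters are a description of the windows and say nothing of binding.

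IL1RAP was the only one of the 4 receptor chains above 1 RPKM in any library. It measured 0.962, 1.19 and 1.02 RPKM in shRNA-NC and 4.53, 2.80 and 3.17 RPKM in shRNA-UBC9. The groups did not overlap, and shRNA-UBC9 replicate 1 was the highest. These values rested on 332 to 476 recovered reads per library in shRNA-NC and 1034 to 1890 in shRNA-UBC9. The log2 fold change was 1.62 with a standard error of 0.18 (95% confidence interval 1.19 to 2.04, adjusted p = 0.00052 from limma). It was 1.61 within the 4 libraries with blood transcripts and 1.62 within the 2 without. IL1RAP lies at chr3:190514085-190659750 on the + strand (GRCh38.p14).

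IL1R1, the signalling receptor for IL-1, was low in both groups. It measured 0.0993, 0.448 and 0.171 RPKM in shRNA-NC and 0.560, 0.421 and 0.415 RPKM in shRNA-UBC9. The 3 knockdown samples lay close together, and shRNA-NC replicate 2 fell within their range, so the groups overlapped. The means were 0.240 ± 0.184 and 0.465 ± 0.082 RPKM (SD, n = 3), a 1.94-fold difference with p = 0.3 in an exact two-sided permutation test, for which 3 against 3 samples cannot give less than 0.1. The reads behind these values numbered 21, 110 and 41 in shRNA-NC and 143, 105 and 83 in shRNA-UBC9. A limma-voom fit to recovered reads, added after the data were seen, included IL1R1 and gave a log2 fold change of 1.17 (95% confidence interval 0.2 to 2.13, adjusted p = 0.071). On the log2(RPKM + 0.1) scale the difference was 0.6 within the 4 libraries with blood transcripts. It was 1.37 between the 2 without, which set 1 knockdown library against shRNA-NC replicate 1, the lowest control. The antisense gene IL1R1-AS1 overlaps IL1R1, and whether counting used strand is not given in the sources used here, so reads of the 2 genes cannot be told apart. Other annotated genes also overlap the spans of IRAK2 (LOC124906338), IL1RAP (GCNT1P3 and RN7SKP296) and IRAK3 (RBMS1P1). The part of these in the values was not tested.

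The decoy receptor IL1R2 was at the limit of detection, with 3, 1 and 0 reads in the shRNA-NC samples and 1, 0 and 0 in the shRNA-UBC9 samples. A count of 0 allows up to 3 reads, or 0.0288 RPKM in shRNA-NC replicate 3 and 0.0277 and 0.0346 RPKM in shRNA-UBC9 replicates 2 and 3. Such limits cover counting error only, and a difference in IL1R2 was not detectable at this depth (p = 0.4, exact permutation test). IL1R2 made up 24.8%, 2.05% and 0% of the summed IL1R1 and IL1R2 RPKM in shRNA-NC and 1.59%, 0% and 0% in shRNA-UBC9. The high share in shRNA-NC replicate 1 rested on 3 reads of IL1R2 beside 21 of IL1R1.

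IL1RL1, the IL-33 receptor, had 0, 0 and 1 recovered reads in shRNA-NC and 26, 6 and 1 in shRNA-UBC9. These correspond to 0, 0 and 0.0103 RPKM and 0.251, 0.0593 and 0.0123 RPKM. For this gene the true counts may be a multiple of these, since recovered reads are the smallest whole numbers in proportion. Each knockdown sample was above each control sample, but the lowest of them differed from the highest control by only 0.0123 against 0.0103 RPKM, and most reads came from shRNA-UBC9 replicate 1. The exact permutation p was 0.1, the smallest that 3 against 3 samples allow. Pooled over each group and scaled by depth, the recovered reads gave a ratio of 32.6 with an exact 95% interval from 5.46 to 1330. This interval rests on the recovered counts and covers counting error only, not the spread between samples. The limma-voom fit to recovered reads gave an adjusted p of 0.085. Without shRNA-UBC9 replicate 1, the difference of the means fell from 0.104 to 0.0324 RPKM. Within the 4 libraries with blood transcripts the log2 difference was 1.17 and within the 2 without it was 0.17.

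**Figure D2:**
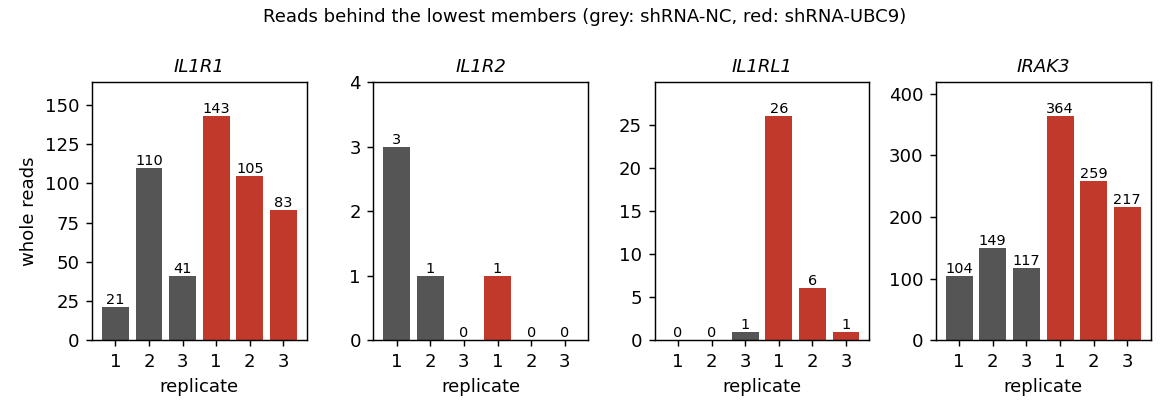
Bars give the recovered whole reads per library for the 4 lowest genes, in grey for shRNA-NC and red for shRNA-UBC9, with the number above each bar and a separate axis for each gene. IL1R2 never exceeds 3 reads and IL1RL1 reads are mostly the 26 of shRNA-UBC9 replicate 1, whereas IRAK3 has 104 to 149 reads in shRNA-NC and 217 to 364 in shRNA-UBC9.

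IL1R2, IL1R1 and IL1RL1 are neighbours in a receptor cluster of 6 genes, with IL1RL2, IL18R1 and IL18RAP, that spans 461 kb at chr2:101991960-102452565 (GRCh38.p14). No gene of the cluster exceeded 0.56 RPKM in any sample. That value belonged to IL1R1, and the other 5 genes reached at most 0.251 RPKM. IL1RAP, on another chromosome, was 9.69, 2.65 and 5.93 times the RPKM of IL1R1 in the shRNA-NC samples and 8.1, 6.65 and 7.63 times in the shRNA-UBC9 samples. These ratios overlapped between the groups (p = 0.6, exact permutation test).

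The adaptor MYD88, which links the receptor to the kinases, was abundant. It measured 13.6, 14.8 and 13.9 RPKM in shRNA-NC and 10.2, 17.1 and 11.2 RPKM in shRNA-UBC9. The knockdown samples lay on both sides of the control samples, with shRNA-UBC9 replicate 2 the highest of all and the other 2 the lowest. The log2 fold change was -0.17 with a standard error of 0.18 (95% confidence interval -0.58 to 0.23, adjusted p = 0.47 from limma). Without shRNA-UBC9 replicate 2 it was -0.40 with an adjusted p of 0.03, so that library decided the call. It was -0.12 within the 4 libraries with blood transcripts and -0.28 within the 2 without. MYD88 lies at chr3:38138661-38143022 on the + strand.

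IRAK1, the kinase that follows IRAK4 in the complex, had the highest level of the 10 genes in every library. It measured 174, 130 and 132 RPKM in shRNA-NC and 104, 129 and 150 RPKM in shRNA-UBC9, and the groups overlapped. The log2 fold change was -0.19 with a standard error of 0.16 (95% confidence interval -0.56 to 0.17, adjusted p = 0.38 from limma). Leaving out 1 library moved it from -0.05 without shRNA-UBC9 replicate 1 to -0.32 without shRNA-UBC9 replicate 3, and it was -0.18 within the 4 libraries with blood transcripts and -0.21 within the 2 without. IRAK1 lies on the - strand of the X chromosome, at chrX:154010507-154019902.

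IRAK2, the kinase linked to sustained signalling through TRAF6, had the largest change of the tested genes of the group. It measured 9.22, 9.83 and 8.35 RPKM in shRNA-NC and 34.9, 34.3 and 30.0 RPKM in shRNA-UBC9. The samples of each group lay close together and far from the other group. Recovered reads numbered 959 to 1186 per library in shRNA-NC and 2951 to 4384 in shRNA-UBC9. The log2 fold change was 1.85 with a standard error of 0.10 (95% confidence interval 1.62 to 2.07, adjusted p = 1.6e-05 from limma), and it was 1.92 within the 4 libraries with blood transcripts and 1.69 within the 2 without. IRAK2 lies at chr3:10164919-10243745 on the + strand.

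IRAK3, the kinase-family member without effective kinase activity, was rare but rose. It measured 0.348, 0.430 and 0.346 RPKM in shRNA-NC and 1.01, 0.735 and 0.769 RPKM in shRNA-UBC9, without overlap. All control samples were below 0.5 RPKM, so that IRAK3 passed the expression filter only through the shRNA-UBC9 samples. The log2 fold change was 0.98 with a standard error of 0.21 (95% confidence interval 0.5 to 1.45, adjusted p = 0.0079 from limma), just under the fold cutoff for a DEG. The limma-voom fit gave 1.13 with an adjusted p of 0.0028. Within the 4 libraries with blood transcripts the value was 0.99 with an adjusted p of 0.052, and within the 2 without it was 0.95. IRAK3 lies at chr12:66189214-66254622 on the + strand.

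IRAK4, the first kinase to join MYD88, measured 2.04, 2.15 and 2.34 RPKM in shRNA-NC and 2.35, 2.70 and 2.74 RPKM in shRNA-UBC9. TRAF6, the ubiquitin ligase below the kinases, measured 2.58, 2.67 and 2.62 RPKM in shRNA-NC and 2.44, 2.16 and 2.06 RPKM in shRNA-UBC9. Neither gene overlapped between the groups, yet both gaps were small and neither passed the test. The log2 fold change was 0.25 for IRAK4 (standard error 0.11, 95% confidence interval -0.01 to 0.5, adjusted p = 0.12 from limma). It was -0.23 for TRAF6 (standard error 0.11, 95% confidence interval -0.48 to 0.01, adjusted p = 0.12 from limma), and -0.29 with an adjusted p of 0.047 after quantile normalization. Within the 4 libraries with blood transcripts and the 2 without, IRAK4 was at 0.16 and 0.41 and TRAF6 at -0.2 and -0.31, respectively. IRAK4 lies at chr12:43758951-43789541 on the + strand and TRAF6 at chr11:36483769-36510272 on the - strand.

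**Figure D3:**
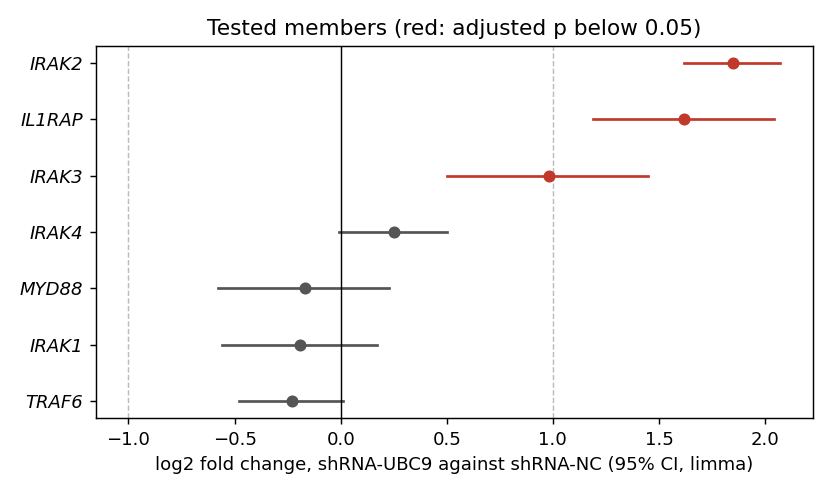
Points give the log2 fold change of shRNA-UBC9 against shRNA-NC for the 7 tested genes, lines the 95% confidence interval from limma (n = 3 per group), and red an adjusted p-value below 0.05, with dashed lines at the fold cutoff of 1 on the log2 scale. IRAK2 (1.85) and IL1RAP (1.62) lie wholly above the cutoff, the interval of IRAK3 (0.5 to 1.45) spans it, and the intervals of IRAK4, MYD88, IRAK1 and TRAF6 include 0.

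The make-up of IRAK transcripts changed with IRAK2. Its share of the summed RPKM of the 4 IRAK genes was 4.98%, 6.89% and 5.84% in shRNA-NC and 24.6%, 20.6% and 16.4% in shRNA-UBC9. The groups did not overlap, and the means of 5.9% ± 0.959 and 20.5% ± 4.11 (SD, n = 3) differed by 14.6 percentage points (p = 0.1, exact permutation test, the smallest possible). IRAK1 made up 92.4% ± 1.23 and 77.4% ± 4.34 of the sum (SD, n = 3), respectively. The summed level itself was 157 ± 24.6 RPKM in shRNA-NC and 164 ± 20.9 RPKM in shRNA-UBC9 (SD, n = 3), with overlapping samples (p = 1.0, exact permutation test). Since RPKM is scaled by length, these shares compare transcript levels between genes.

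**Figure D4:**
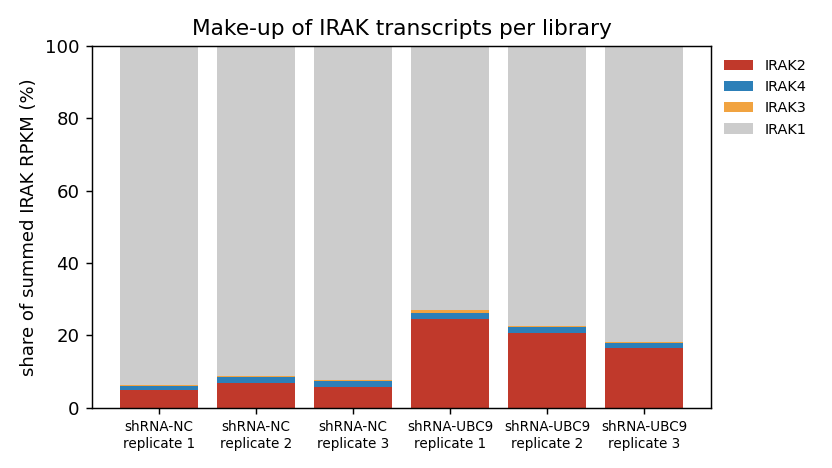
Stacked bars give each IRAK gene's share, in percent, of the summed IRAK RPKM in each of the 6 libraries. The IRAK2 share is 4.98% to 6.89% in the shRNA-NC libraries and 16.4% to 24.6% in the shRNA-UBC9 libraries, with IRAK1 forming most of the rest.

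In shRNA-NC the order of levels per length was IRAK1, MYD88, IRAK2, TRAF6, IRAK4, IL1RAP, IRAK3, IL1R1, IL1R2 and IL1RL1. The ranges of neighbours overlapped only between IRAK3 and IL1R1 and between IL1R2 and IL1RL1. In shRNA-UBC9 IRAK2 stood above MYD88, and IL1RAP stood above IRAK4 and TRAF6, whose ranges overlapped each other. IRAK2 was 0.679, 0.665 and 0.599 times the RPKM of MYD88 in shRNA-NC and 3.44, 2.01 and 2.68 times in shRNA-UBC9. Relative to IRAK4 it was 4.53, 4.57 and 3.57 times in shRNA-NC and 14.8, 12.7 and 11.0 times in shRNA-UBC9.

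Over the 6 samples, the tested genes with a pattern most like that of IRAK2 by Pearson correlation of log2(RPKM + 0.1) were IL1B (r = 0.9997), HIVEP2 (0.9994), PPP1R15A (0.9992), RAB21 (0.9986) and G0S2 (0.9985). For IL1RAP they were FNDC3B (0.998), C16orf72 (0.9979), ALS2CL (0.9975), IRAK3 (0.997) and INHBA (0.9969). All 6 points share the difference between the groups, and 119 tested genes reached an r of 0.99 or more with IRAK2 and 50 did with IL1RAP. IL1B measured 28.1, 32.4 and 22.2 RPKM in shRNA-NC and 494, 513 and 402 RPKM in shRNA-UBC9, so that shRNA-UBC9 replicate 3 was the lowest of its group for both IL1B and IRAK2.

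The ligands of these receptors were measured in the same libraries. Of 11 ligands and antagonists 4 were tested and 3 passed as higher, against 18.8% of all tested genes. Of the 3, IL33 passed the expression filter only through the shRNA-UBC9 samples. IL1A rose from 10.6 ± 3.33 to 119.5 ± 16.9 RPKM (adjusted p = 2.8e-05 from limma), IL1B from 27.6 ± 5.11 to 469.7 ± 59.0 RPKM (adjusted p = 6.9e-06) and IL33 from 0.130 ± 0.0738 to 7.21 ± 0.451 RPKM (adjusted p = 1.3e-05; SD, n = 3 each). Together IL1A and IL1B came to 38.4, 46.5 and 29.6 RPKM in shRNA-NC and 617, 647 and 503 RPKM in shRNA-UBC9, beside IL1R1 at no more than 0.56 RPKM in any library. IL18 did not pass the test, with a log2 fold change of -0.37 and an adjusted p of 0.056 in limma. IL1RN, the receptor antagonist, averaged 0.00591 and 0.0317 RPKM in shRNA-NC and shRNA-UBC9. Of 6 other receptors of the family only SIGIRR, an inhibitory receptor, was tested, and it measured 7.37 ± 1.77 and 9.95 ± 0.76 RPKM (SD, n = 3). Its log2 fold change was 0.46, with an adjusted p of 0.071 in limma.

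Most Toll-like receptors use MYD88 and the IRAK kinases too, whereas TLR3 signals through TICAM1. Of the 4 tested among 10, 3 passed as higher, against 18.8% of all tested genes. TLR2 was the only DEG of the list, at 1.005 ± 0.531 and 5.12 ± 1.98 RPKM (SD, n = 3), or 2.26 higher on the log2 scale (limma adjusted p = 0.0029). TLR6 rose by 0.70 (adjusted p = 0.017) and TLR3 by 0.87 (adjusted p = 0.046). TLR4, the receptor for lipopolysaccharide, had the highest level of the list, at 22.8 ± 3.04 and 23.1 ± 7.82 RPKM (SD, n = 3), with a log2 fold change of -0.02 (adjusted p = 0.94). Among the 4 other TIR adaptors, TICAM1 rose by 0.97 on the log2 scale (adjusted p = 0.00042) and TIRAP by 0.36 (adjusted p = 0.024), while TICAM2 and SARM1 had log2 fold changes of -0.36 and -0.08 and did not pass.

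Below TRAF6, of 19 tested genes that connect it to the kinases 3 passed as higher and 2 as lower (18.8% and 18.0% of all tested genes), with a median log2 fold change of -0.03. SQSTM1, the scaffold p62, rose by 2.12 on the log2 scale (adjusted p = 3.5e-05 from limma) and was the only DEG of the list. Of 14 tested MAP kinase genes 5 passed as higher and 1 as lower, against 18.8% and 18.0% of all tested genes. None of them was a DEG in this fit (5.2% and 2.7% of all tested genes were DEGs higher and lower). The 1 lower gene, MAP2K6, passed the filter only through the shRNA-NC samples. Of 16 tested inhibitors of the pathway 9 passed as higher and 1 as lower, against 18.8% and 18.0% of all tested genes. Among the inhibitors 4 were DEGs higher in shRNA-UBC9, against 5.2% of all tested genes. These were TNFAIP3 (A20), a ubiquitin-editing enzyme that acts on TRAF6, with a log2 fold change of 3.42, the RNase gene ZC3H12A with 2.81, the A20 partner gene TNIP1 with 2.25, and NFKBIA, which encodes I-kappa-B alpha, with 1.66. Their adjusted p-values from limma were 0.00026, 0.00052, 5.4e-05 and 0.0026, respectively.

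Of 24 genes listed as IL-1 responsive in many cell types, 21 were tested. All 21 passed as higher, against 18.8% of all tested genes, and 19 were DEGs higher, against 5.2%. Their median log2 fold change was 3.81, beside 0.005 over all tested genes. The filter fixed part of this count, since CCL20, MMP1 and MMP3 passed it only through the shRNA-UBC9 samples. The 3 listed genes that did not pass it were not tested. Of these, LCN2 and TNFAIP6 had a higher mean in shRNA-UBC9. VCAM1 had a lower one, at 0.0224 RPKM in shRNA-NC and 0.00603 RPKM in shRNA-UBC9, near 0 in both. The listed genes also respond to other stimuli, and the list was written with earlier results of these data known, so its count is not independent evidence. The DEGs with the largest log2 fold changes were the chemokine gene CCL20 (7.71), the collagenase gene MMP1 (7.43), CSF3 (7.41) and MMP3 (7.41), the cyclooxygenase gene PTGS2 (6.49) and the chemokine gene CXCL3 (5.46). MMP3 averaged 0.019 RPKM in shRNA-NC, so its fold depends on the added 0.1 RPKM. Over all 10 lists, 96 of 121 genes were tested. Of these, 50 passed as higher and 6 as lower, against 18.8% and 18.0% of all tested genes. The response list gave 21 of the 50, and the 50 include IL33, CCL20, MMP1 and MMP3, tested only through shRNA-UBC9.

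**Figure D5:**
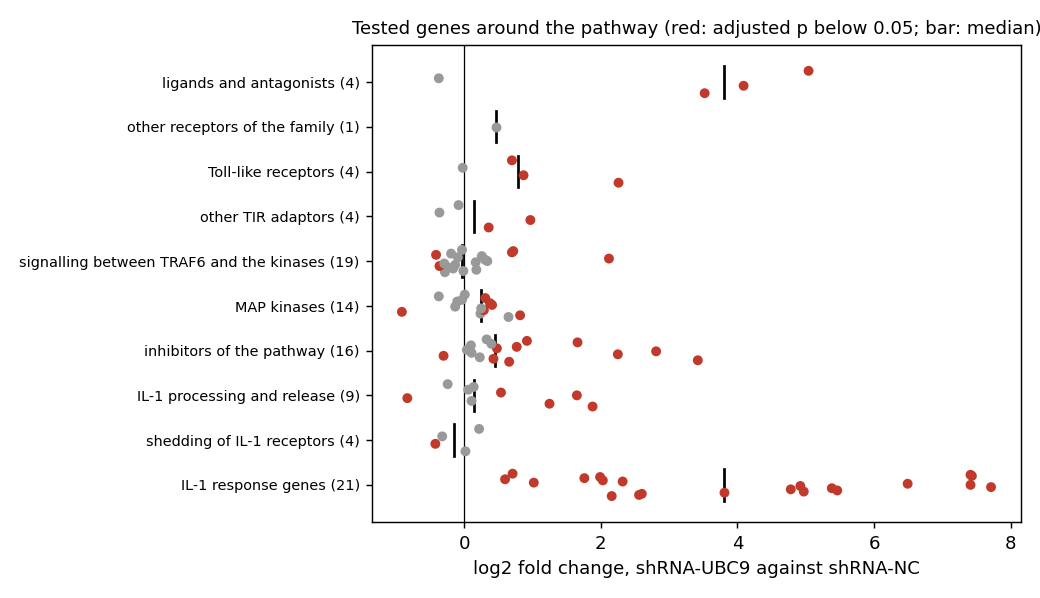
Each point is the log2 fold change of a tested gene from 10 lists around the pathway, with the number tested in brackets, red for an adjusted p-value below 0.05 (limma, n = 3 per group) and a black bar for the list median. The ligands and the response genes have medians of 3.81, and they include IL33, CCL20, MMP1 and MMP3, tested only through shRNA-UBC9. The genes between TRAF6 and the kinases have a median of -0.03, with SQSTM1 (2.12) apart from the rest.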

How the data were processed

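The deposited files held 1 RPKM value per gene and sample, with 3 samples in each group. The authors prepared polyA libraries with an Illumina TruSeq kit, mapped trimmed reads to hg38 with the CLC workbench and computed RPKM, and the annotation release is not given in the sources used here. RPKM values were taken as log2(RPKM + 0.1). Genes with at least 0.5 RPKM in at least 3 of 6 samples (12428 of 58174) were fitted in limma 3.58.1 (R 4.3.3, trended variance) with Benjamini-Hochberg adjustment over all of them. Single values used exact two-sided permutation tests, which cannot give less than 0.1. The exact interval of the pooled reads was computed with scipy 1.17.1.

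RPKM values were whole multiples of what 1 read is worth for 99.87% of tested genes (tolerance 0.01), which gave recovered reads per gene. These are the smallest whole numbers in proportion, and the true counts may be a multiple of them. On simulated data, 93.0% of 200 genes shifted by 2 on the log2 scale were recovered among 12428 genes.

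The genes and lists were chosen with earlier results of these data known. The text names all 10 genes, up to 6 DEGs of each list by size of change, every ligand, receptor and adaptor with a mean of at least 0.5 RPKM, and the 5 genes most correlated with IRAK2 and with IL1RAP. The level of the targeted gene and 1 cell type marker are not reported here. Other genes of the lists are given as counts, apart from some that were named after their values were seen. These are IL1RN, TLR3, TLR4, TLR6, MAP2K6, CAPN2, NLRP1, ADAM17, LCN2, TNFAIP6 and VCAM1. Older symbols were matched through RefSeq, which also gave coordinates and promoters (GRCh38.p14). Alternatives were other pseudocounts, filters and normalization, a replicate block, leaving out each sample and, added later, recovered reads with limma-voom, a term for blood transcripts and the libraries with or without them.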

Additional observations from a re-analysis of the deposited data

How the results depend on the processing

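Of 278 repeated values, 263 were labelled the same, 12 moved, 2 passed the test where they had not, 1 no longer passed and 0 reversed. The same meant an unchanged direction and call, or a count within 1.5 times. For the shares, the genes below the filter and the 2 libraries without blood transcripts, only the direction was compared. With a pseudocount of 1, all tested genes gave 391 higher and 161 lower DEGs, and with at least 1 RPKM in every sample 342 and 210. That filter left 1 DEG among the 10 genes, since IL1RAP was not tested, and 19 higher DEGs in the pathway lists. The lists gave 1 lower DEG, MAP2K6, not 0, with a pseudocount of 0.01, quantile normalization, limma-voom on recovered reads and only the 4 libraries with blood transcripts. TRAF6 passed after quantile normalization (-0.29) and IRAK3 did not pass within those 4 libraries (0.99). The causes were not tested. Leaving out 1 sample gave 0 to 1 lower DEG in the lists (1 without shRNA-NC replicate 1 or shRNA-UBC9 replicate 2), and MYD88 ranged from -0.40, past the threshold without shRNA-UBC9 replicate 2, to -0.03. IRAK2 ranged from 1.78 to 1.91, IL1RAP from 1.42 to 1.76 and IRAK3 from 0.85 to 1.06, and 2 to 3 of the 10 genes were DEGs. IL1RL1 had a difference of 0.0324 to 0.152 RPKM. Same-numbered samples did not deviate together (correlations of -0.367, 0.073 and -0.17). With 3 samples per group this cannot show whether they were handled together, which the labels do not state. With a replicate block IRAK2 was 1.85, IL1RAP 1.62 and IRAK3 0.98, all still past the threshold, and 642 and 332 genes were DEGs higher and lower. Depth limits IL1R2 and IL1RL1, which rest on few or no reads in most libraries.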

Other observations

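Genes that process and release IL-1 gave 4 higher and 1 lower among 9 tested of 10, against 18.8% and 18.0% of all tested genes. CASP1, which cleaves pro-IL-1 beta, rose from 2.16 ± 1.21 to 7.90 ± 3.07 RPKM (SD, n = 3), or by 1.88 on the log2 scale (limma adjusted p = 0.0076). NLRP3, an inflammasome sensor, rose by 1.65 (adjusted p = 0.00069) and CASP4, an inflammatory caspase, by 1.25 (adjusted p = 0.00044), and these were the 3 DEGs of the list. CAPN2, a subunit of the calpain that can cleave pro-IL-1 alpha, fell by 0.83 on the log2 scale (adjusted p = 0.0029). NLRP1 rose by 0.54 (adjusted p = 0.014). CAPN2 and NLRP1 were named after their values were seen.

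Of 5 genes for shedding of IL-1 receptors 4 were tested, and 1 passed, as lower, which 18.0% of all tested genes did, so the count does not set the list apart. ADAM17, a protease that sheds IL1R2 among other proteins, fell by 0.42 on the log2 scale (adjusted p = 0.042 from limma), from 8.80 ± 1.08 to 6.58 ± 1.01 RPKM (SD, n = 3), and was also named after its values were seen.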
